A study of Mus musculus with 2 samples.

Results

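Post-mitotic neural precursors of the mouse vomeronasal organ (VNO) were examined as the cells in which Neurod1, a transcription factor of committed neuronal precursors, was high while markers of division and of early axon growth were at or near 0. They were chosen by the measured UMIs of 4 genes: at least 3 UMIs of Neurod1, 0 UMIs of Mki67 and of Top2a (a marker of dividing cells and a topoisomerase of dividing cells), and at most 2 UMIs of Gap43, a protein of growing axons. A UMI (unique molecular identifier) marks 1 captured mRNA molecule. The name post-mitotic rests on 0 UMIs of Mki67 and of Top2a alone. It may not hold for every cell, since transcripts of other division genes were seen in part of them (below). The rule was applied to barcodes with 200 to 9000 genes and at most 10% of UMIs from mitochondrial genes, of which there were 18704 among 24084 deposited barcodes. It found 120 precursors, 60 in library 1 and 60 in library 2. Both libraries came from whole VNO of C57BL/6J wild-type males at P60, from 5 mice in total, and all cells share 1 condition. How the mice were divided between the libraries is not stated in the labels or methods, and p-values rest on the spread between sums from these libraries, which may be technical and which edgeR shares over genes. They do not measure variation between mice. The dissociated cells had been frozen and thawed before capture.

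The precursors were compared with the stages before and after them in the lineage, each defined by UMIs in the same way. Cycling progenitors held at least 1 UMI each of Mki67 and Top2a, at least 2 UMIs over proneural genes that included Neurog1 and Neurod1, and at most 2 UMIs of Gap43 (70 cells, 45 in library 1 and 25 in library 2). Immature neurons held at least 5 UMIs of Gap43, 0 UMIs of Neurod1, Mki67, Top2a and Sox10 and at most 2 UMIs of Omp, with a further limit on glial RNA (226 cells, 118 and 108). Of these, 204 were apical, with at least 2 UMIs of Meis2 and 0 of Tfap2e, and 22 were basal, with at least 2 UMIs of Tfap2e and 0 of Meis2, so that the pooled immature group was mostly apical. Within the precursors, cells with Neurog1 or Meis2 were compared with cells without.

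In the VNO epithelium, stem cells give rise to dividing progenitors in which proneural bHLH factors, among them Neurog1 and then Neurod1, act in turn, and Neurod1-positive cells leave the cell cycle and become neurons of either an apical or a basal type. Apical vomeronasal sensory neurons use V1R receptors and the G protein subunit Gnai2 and carry the factor Meis2, whereas basal neurons use V2R receptors and Gnao1 and carry Tfap2e. Per the study, Bcl11b runs along the whole basal branch and comes on later, at early maturation, in the apical branch. Neighbouring cells of such lineages signal through Notch receptors and Delta-like ligands, and Notch targets of the Hes family hold back neurogenesis.

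The libraries held 108005626 and 95442231 UMIs over all barcodes, and the precursors 712572 and 624320. A precursor had a median of 8915 UMIs (range 1405 to 60069) and 3153 genes, against 15458 UMIs in cycling progenitors and 9125 in immature neurons. The median mitochondrial share was 4.08% in precursors, 3.86% in cycling progenitors and 2.99% in immature neurons. The libraries shared 18 barcode sequences among cells past the filter, and 0 precursors carried a shared one. A doublet caller marked 4 of the 120 precursors. Markers of other cell types were present: 34 precursors (28.3%) held at least 5 UMIs over at least 1 of 11 lists of non-neuronal markers. The gland and non-sensory list passed this limit in 24 precursors, the basal epithelial list in 12, the sustentacular list in 10, the macrophage list in 4 and the fibroblast list in 4. The highest sum in a single precursor was 355 UMIs of the fibroblast list, 166 of the neutrophil list and 160 of the macrophage list. All 5 T cell genes were at 0, as were Trpm5 of tuft cells and Retnlg of neutrophils. All 4 doublets were among these 34 cells, which had a median of 10733.5 UMIs against 8745 in the other 86. Cycling progenitors passed the limit in 38.6% and immature neurons in 23.5% of cells. Their part in the results was not tested, and results are also given without these cells ("without other-type cells").

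Values of the chosen gene sat well inside the rule for most cells. Neurod1 had a median of 11 UMIs in the precursors (range 3 to 37), 8 precursors sat at the limit of 3 UMIs, and 12 cells just outside it had 2 UMIs with the other limits met. Gap43 was at 0 UMIs in 63 precursors, at 1 in 37 and at 2 in 20, and 12 cells with 3 UMIs were just outside. Of 259 cells with at least 3 UMIs of Neurod1, 74 were left out for Mki67 or Top2a and 53 for Gap43. These values are a description, since they chose the cells, and genes that travel with these 4 are not independent of the choice.

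Marker genes of the label other than Neurod1 were seen in the precursors. Lhx2, a homeobox factor of olfactory and vomeronasal neurons, was seen in 118 of 120 precursors (98.3%, 95% confidence interval 94.1 to 99.8%), against 4.09% of macrophage-like cells, which served as a measure of free RNA and had a median of 4539 UMIs. This measure also counts RNA that macrophage-like cells make themselves, so it can overstate free RNA for a gene they express. Hes6, a bHLH factor that opposes Hes1, was seen in 116 of 120 precursors (96.7%, 95% confidence interval 91.7 to 99.1%), against 15.9% of macrophage-like cells. Neurog1 was seen in 51 of 120 precursors (42.5%, 95% confidence interval 33.5 to 51.9%) and Ccno, a cyclin-family gene of multiciliated cells, in 51 of 120 precursors (42.5%, 95% confidence interval 33.5 to 51.9%), against 0.186% and 0.279% of macrophage-like cells. With each cell thinned to 5000 UMIs, which left out 5 precursors, the shares were 97.4% for Lhx2, 89.6% for Hes6, 30.4% for Neurog1 and 29.6% for Ccno. Neurod1 itself was fixed by the rule, and the other 4 marker genes of the label were each seen in a larger share of precursors than of macrophage-like cells. These genes were chosen with earlier results of these data known, so their shares are a description and no support for the label. They do not all set this stage apart, since Hes6 was higher in cycling progenitors (below). Intervals cover counting error only.

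**Figure D1:**
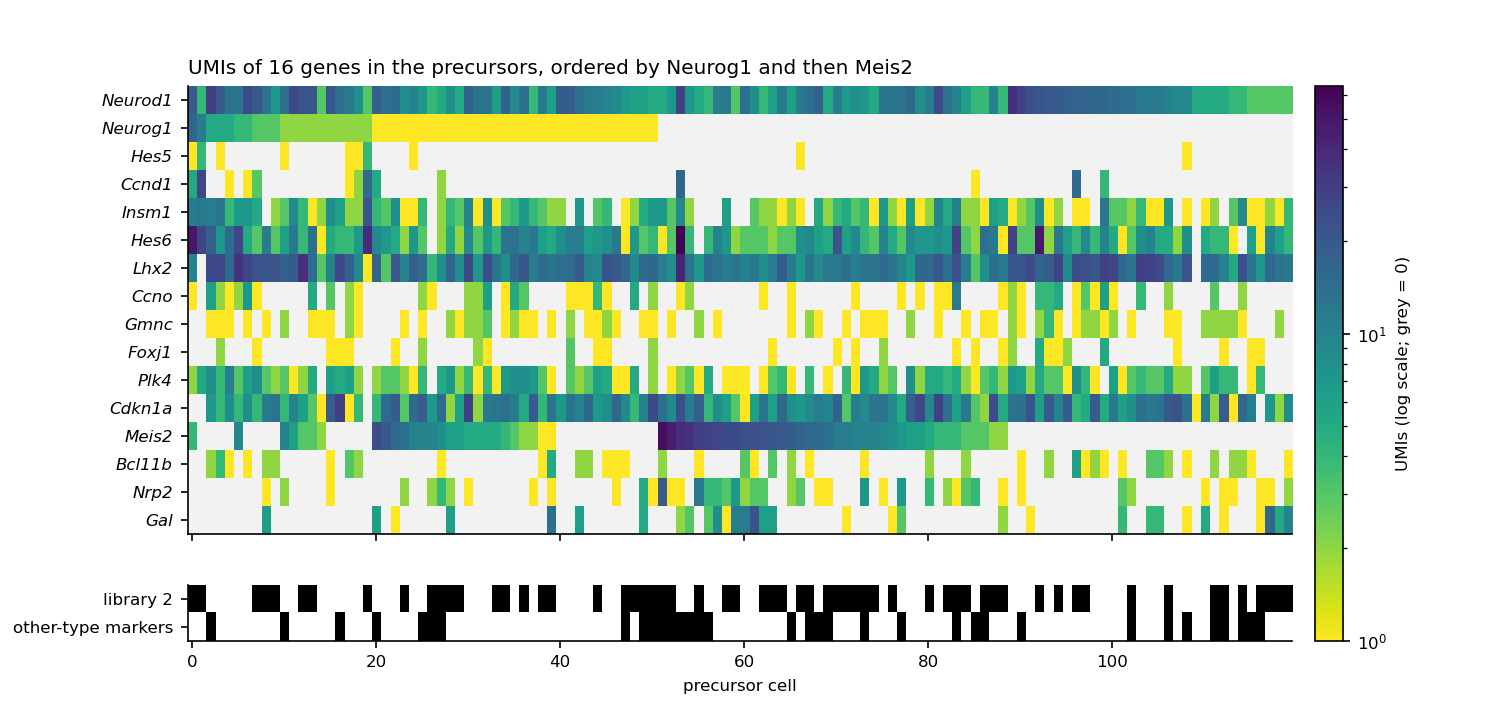
UMIs (color, log scale, grey for 0) of 16 genes (rows) in each of the 120 precursors (columns), ordered by Neurog1 and then Meis2, with the cells of library 2 and the cells with other-type markers marked in black below. Lhx2, Hes6 and Cdkn1a were seen in nearly every cell, whereas Neurog1 (51 cells), Ccno (51), Gmnc (64), Meis2 (65) and Bcl11b (43) were each seen in a part of them.

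Ccno, Gmnc and other genes were higher in the precursors than in either neighbouring stage. By the smaller of its log2 changes against cycling progenitors and against immature neurons, the 10 leading genes with at least 50 CPM (counts of UMIs scaled to a group total of 1000000) in both libraries were Mss51, Ccno, Pidd1, Tex14, Uncx, Tsc2, Nrtn, Cfap206, Gmnc and Rprm. Both comparisons use the same precursor sums, so values are given side by side. Mss51, which encodes a mitochondrial protein, stood at 98.2 and 81.7 CPM in precursors of libraries 1 and 2, 3.79 and 4.75 in cycling progenitors and 1.47 and 0.892 in immature neurons. Ccno stood at 99.6 and 92.9 CPM in precursors, 3.79 and 7.12 in cycling progenitors and 2.21 and 1.78 in immature neurons. The groups did not overlap for either gene. Over all genes tested, 5.4% were called higher and 5.62% lower than in cycling progenitors, and 4.86% higher and 6.63% lower than in immature neurons. The log2 change of Ccno was 4.14 ± 0.38 SE, adjusted p = 3.33e-05 against cycling progenitors and 5.43 ± 0.35 SE, adjusted p = 4.46e-05 against immature neurons, and that of Mss51 was 4.30 ± 0.40 SE, adjusted p = 3.85e-05 and, by UMIs, a ratio of 74.8 (95% counting interval 25 to 368).

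Pidd1 encodes the scaffold of the PIDDosome, a complex that responds to extra centrosomes. It stood at 159 and 131 CPM in precursors, 10.1 and 9.49 in cycling progenitors and 11.8 and 12.5 in immature neurons, with log2 changes of 3.77 ± 0.31 and 3.52 ± 0.25. Tex14, a protein of intercellular bridges in germ cells, stood at 181 and 200.2 CPM in precursors, 15.2 and 16.6 in cycling progenitors and 4.42 and 6.24 in immature neurons (3.50 ± 0.26 and 5.09 ± 0.25). Uncx, a homeobox factor of neuronal precursors, stood at 218 and 149 CPM in precursors, 20.2 and 7.12 in cycling progenitors and 35.3 and 42.8 in immature neurons (3.48 ± 0.37 and 2.19 ± 0.24). All 3 genes were thus high in both precursor sums and low in all sums of the neighbours. Tsc2, an inhibitor of mTORC1 signalling, stood at 211 and 187 CPM in precursors, 15.2 and 23.7 in cycling progenitors and 19.9 and 28.5 in immature neurons (3.34 ± 0.28 and 2.99 ± 0.22), and overlaps Pkd1 on the opposite strand. Rprm, a p53-induced gene of cell cycle arrest, stood at 302 and 306 CPM in precursors, 61.9 and 61.7 in cycling progenitors and 14.7 and 10.7 in immature neurons (2.21 ± 0.20 and 4.49 ± 0.21). Nrtn, the neurotrophic factor neurturin, stood at 77.2 and 76.9 CPM in precursors, 8.84 and 16.6 in cycling progenitors and 9.57 and 12.5 in immature neurons (2.62 ± 0.34 and 2.75 ± 0.28). Cfap206, a protein of motile cilia, stood at 71.6 and 68.9 CPM in precursors, 6.31 and 21.4 in cycling progenitors and 11.8 and 10.7 in immature neurons (2.47 ± 0.42 and 2.57 ± 0.28). Levels of these genes were likewise apart from those of both neighbours in every sum. For all the leading genes this follows largely from how they were picked. Leaving out 1 library moved the fold of 3 of these genes against cycling progenitors by over 1.5 times: the log2 change of Uncx was 4.59 without library 1 of the cycling progenitors, that of Gmnc 3.14 without library 1 of the cycling progenitors, and that of Cfap206 1.65 without library 1 of the cycling progenitors and 3.33 without library 2 of the cycling progenitors. Against immature neurons Gmnc moved to 6.18 without library 2 of the immature neurons. All 10 genes were called by edgeR in both comparisons and under each of the 15 alternatives against cycling progenitors and the 17 against immature neurons, which is no separate support, since they were picked as the highest at this stage. Without 1 library a group is a single sum, which is taken to vary like the other group.

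**Figure D2:**
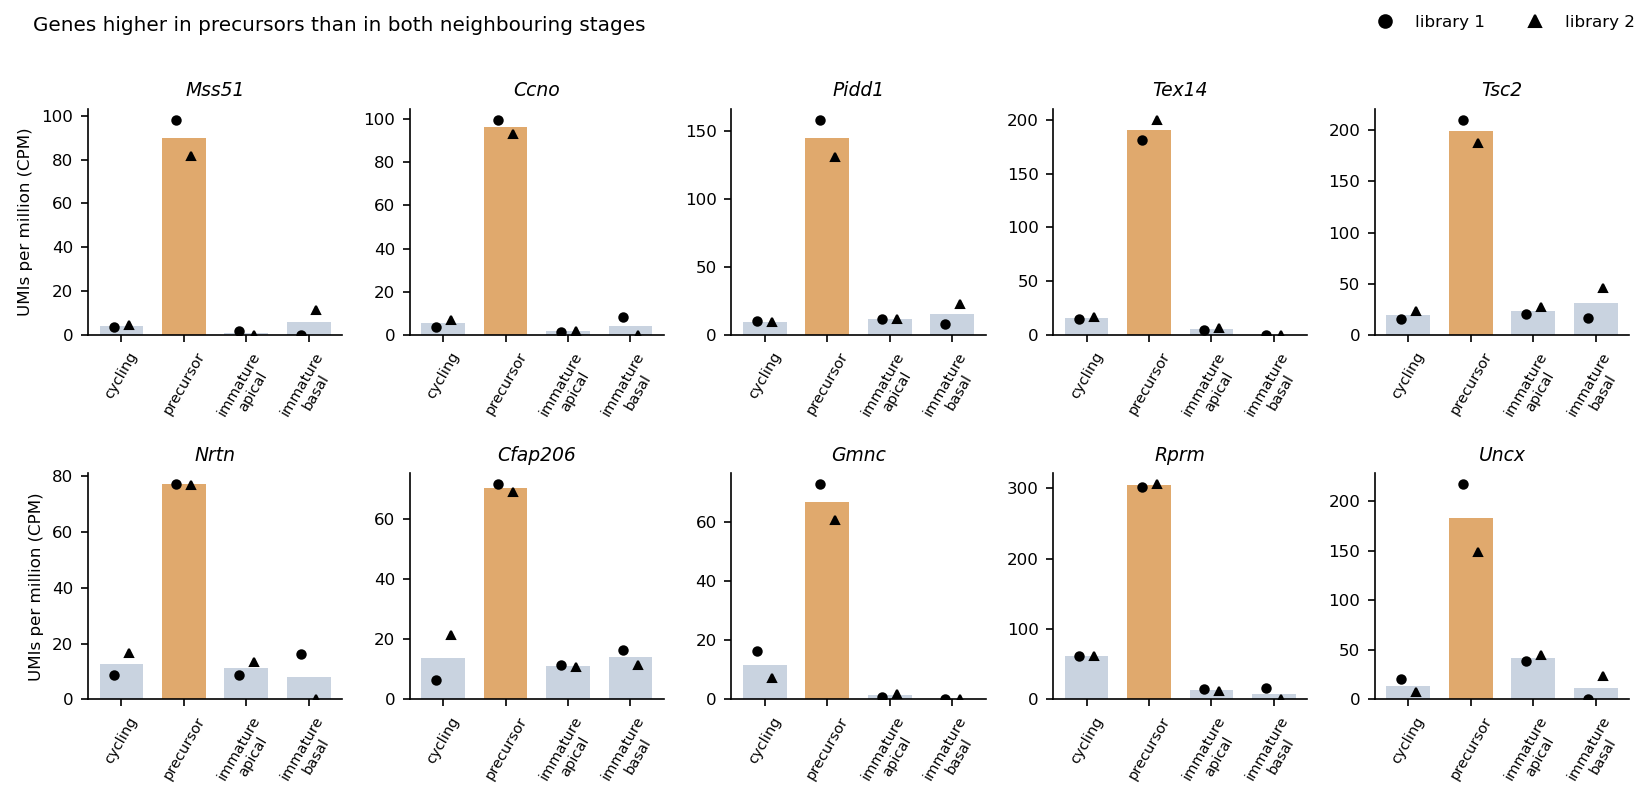
Level of the 10 leading genes (y axis, CPM) in cycling progenitors, precursors and apical and basal immature neurons, with bars for the mean of 2 libraries and a point for each library. Both precursor points lie above all other points in each of the 10 panels, for example Ccno at 99.6 and 92.9 CPM in precursors against 3.79 and 7.12 in cycling progenitors. The genes were picked for being highest at this stage.

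Ccno (chr13:112987802-112990777, mm10) lies beside Mcidas (chr13:112993845-113000394), another regulator of the multiciliated programme, and Gmnc lies at chr16:26913553-26991652. NEUROD1 and other proneural factors bind E-box letters of the form CANNTG, so the promoters of the 10 leading genes (250 bases before to 50 after the start, from RefSeq, GRCm38.p6) were searched for CAGCTG, which reads the same on both strands, and for CAGATG or its reverse CATCTG. The letters CAGCTG were in the promoter of 4 of the 10 genes (Ccno, Tsc2, Nrtn and Gmnc), against 18.3% of 27025 genes and 16.3% of all 32851 promoters. CAGATG was in 1 of the 10 (Gmnc), against 19.2% of genes and 17.2% of promoters. The promoters of Ccno (chr13:112987552-112987851, forward strand) and of both start sites of Gmnc (chr16:26991603-26991902 and chr16:26968196-26968495, reverse strand) are shown 5′ to 3′, as those of the regulators among the 10 genes in which such letters were found, with the matches in capitals:
Ccno: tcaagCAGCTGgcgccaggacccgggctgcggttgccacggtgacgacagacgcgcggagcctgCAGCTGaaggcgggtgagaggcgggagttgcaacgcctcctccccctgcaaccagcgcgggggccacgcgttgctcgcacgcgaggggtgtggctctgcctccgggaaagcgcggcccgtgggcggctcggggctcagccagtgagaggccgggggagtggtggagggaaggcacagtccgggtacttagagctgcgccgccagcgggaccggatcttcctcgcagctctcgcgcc
Gmnc, first start site: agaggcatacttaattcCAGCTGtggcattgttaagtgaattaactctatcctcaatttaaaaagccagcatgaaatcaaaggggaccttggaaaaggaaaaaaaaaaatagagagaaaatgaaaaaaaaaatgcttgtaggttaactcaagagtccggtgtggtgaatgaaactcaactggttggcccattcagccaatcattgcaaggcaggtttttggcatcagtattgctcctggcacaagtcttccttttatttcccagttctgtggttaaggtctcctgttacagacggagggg
Gmnc, second start site: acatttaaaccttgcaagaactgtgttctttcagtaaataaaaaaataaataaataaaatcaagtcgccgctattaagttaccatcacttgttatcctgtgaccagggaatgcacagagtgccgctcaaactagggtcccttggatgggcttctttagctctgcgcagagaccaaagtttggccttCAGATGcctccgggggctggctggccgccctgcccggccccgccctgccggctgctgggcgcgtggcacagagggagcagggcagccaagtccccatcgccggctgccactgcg
Ccno held CAGCTG at both of its matches, the first Gmnc site held CAGCTG and the second CAGATG, and no matches overlapped. A match is a description of these letters and not of binding.

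Regulators of multiciliated cells were among the genes raised in the precursors. In such cells Gmnc and Mcidas start a programme with E2F factors that runs through Myb, Ccno, Foxj1 and Trp73 and amplifies centrioles through Deup1, Plk4, Cep152 and Stil. Of the 22 listed genes, 19 were tested against cycling progenitors, of which 9 were higher and 2 lower in precursors, with a median log2 change of 0.35 (0.03 over all 11385 genes tested). Against immature neurons, 18 were tested, 13 were higher and the other 5 were not called, with a median of 2.43 (0.00 over all 12230 genes). Among all genes, 5.4% were higher and 5.62% lower than in cycling progenitors, and 4.86% were higher than in immature neurons. A gene entered a test with 10 or more UMIs over both groups, so that a gene absent from 1 group entered through the other. This list, like the other lists here, was chosen with earlier results of these data known. It also holds Ccno and Gmnc, picked above as leading genes, so its counts and medians are a description.

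Gmnc stood at 73 and 60.9 CPM in precursors, 16.4 and 7.12 in cycling progenitors and 0.736 and 1.78 in immature neurons, a log2 change of 2.27 ± 0.38 SE, adjusted p = 0.00225 against the former. Trp73, a p53 family factor, stood at 114 and 152 CPM in precursors, 10.1 and 2.37 in cycling progenitors and 30.2 and 30.3 in immature neurons (4.05 ± 0.39 and 2.06 ± 0.22), and overlaps the antisense gene Trp73os. Its change against cycling progenitors was 5.62 without library 1 of the cycling progenitors. Levels of both genes were highest in both precursor sums. Foxj1, the master factor of motile cilia, stood at 42.1 and 27.2 CPM in precursors, and its 47 UMIs stood against 3 in cycling progenitors, a ratio of 14.2 (95% counting interval 4.58 to 71.4). Foxj1, Mcidas and Deup1 had 0 UMIs in both libraries of the immature neurons. Against a floor of 3 counts over the immature group they were at least 29.1-fold, 22.9-fold and 22.3-fold higher in precursors. Against cycling progenitors, Mcidas (2.63 ± 0.65 SE, adjusted p = 0.0229) lost its call with the library as a block (adjusted p = 0.0556, up to 0.191 over the alternatives) and was 7.02 without library 1 of the cycling progenitors and 1.99 without library 2 of the cycling progenitors. Deup1 (2.32 ± 0.65 SE, adjusted p = 0.0402) was 1.55 without library 1 of the precursors (not called) and 3.33 without library 1 of the cycling progenitors.

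The centriole genes followed a different order. Plk4, the kinase that starts centriole duplication, stood at 259.6 and 289.9 CPM in precursors, 126 and 178 in cycling progenitors and 33.1 and 35.7 in immature neurons, with log2 changes of 0.80 ± 0.20 SE, adjusted p = 0.0244 and 2.94 ± 0.17 SE, adjusted p = 2.96e-05. The first of these was not called without library 1 of the cycling progenitors (log2 change 0.56) nor in thinned cells. Cep152 (73 and 89.7 CPM) and Stil (99.6 and 111 CPM) gave log2 changes of -0.16 ± 0.22 and 0.22 ± 0.25 against cycling progenitors, which were not called, and of 3.96 ± 0.37 and 3.25 ± 0.25 against immature neurons, which were (Cep152 4.62 without library 2 of the immature neurons). Ccp110, a brake on cilium growth, and Foxn4 were lower than in cycling progenitors (-1.58 ± 0.21 and -2.44 ± 0.51). Dynlrb2, a dynein light chain, was higher than in both neighbours (2.22 ± 0.22 and 1.74 ± 0.17), and so was Tppp3, a tubulin-binding protein (1.34 ± 0.28 and 1.30 ± 0.26). Against basal immature neurons alone Tppp3 was lower in precursors (-1.17), and against cycling progenitors it was not called without library 1 of the cycling progenitors (0.91).

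Single cells held these transcripts in combination. For 5 of the regulators, pooled after their values were seen (Gmnc, Mcidas, Ccno, Foxj1 and Deup1), 93 of 120 precursors (77.5%, 95% confidence interval 69.0 to 84.6%) held a UMI of at least 1 gene, 48 of 60 in library 1 and 45 of 60 in library 2. At least 2 of the 5 were seen in 50 precursors, and all 5 in 4. The share with at least 1 was 31.4% in cycling progenitors, 3.43% in apical immature neurons and 1.26% in macrophage-like cells. Thinned to 5000 UMIs per cell it was 53.9% in precursors, 17.9% in cycling progenitors and 1.55% in apical immature neurons, and without other-type cells, unthinned, it was 75.6% in precursors. Gmnc was seen in 35 of the 51 precursors with Ccno and in 29 of the 69 without, and Foxj1 in 19 of the 51 and 11 of the 69. The ciliated cell list, which marks mature ciliated cells, summed to 202 and 162 CPM in precursors, 112 and 149 CPM in cycling progenitors and 66.2 and 64.2 CPM in immature neurons. Of its 7 genes, 6 had UMIs in the precursors, and 94 precursors held a UMI of the list. Only Sntn, a protein of mature cilia, was at 0 in all precursors.

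**Figure D3:**
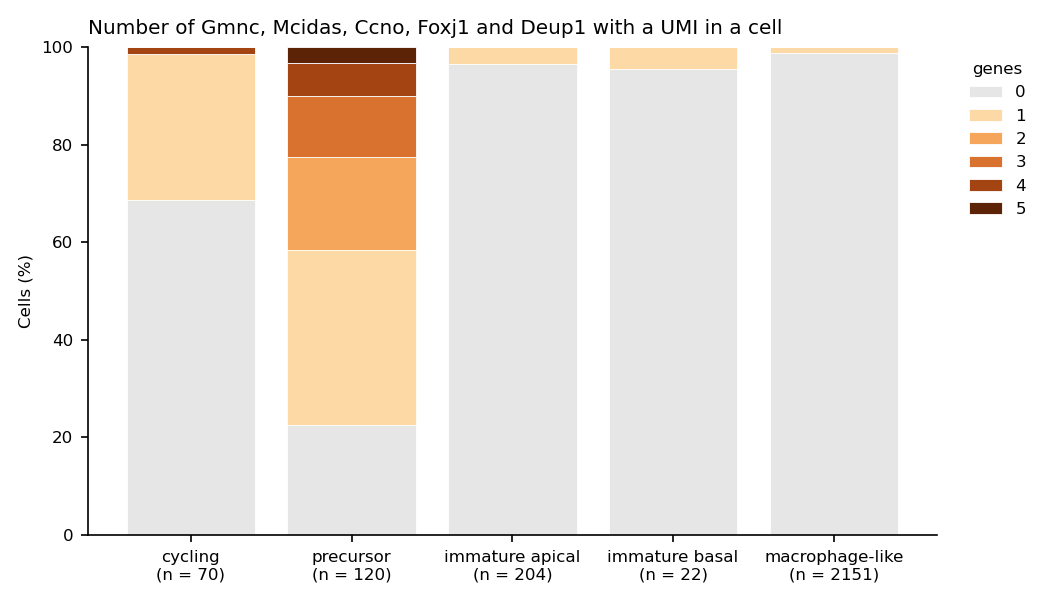
Share of cells (y axis, percent) by how many of Gmnc, Mcidas, Ccno, Foxj1 and Deup1 had a UMI in the cell, for cycling progenitors, precursors, apical and basal immature neurons and macrophage-like cells. Precursors with 2 or more of the genes made up 41.7% of cells, against 1.43% of cycling progenitors.

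Genes of cell cycle exit differed at this step. The groups were set apart by Mki67 and Top2a, so changes of such genes against cycling progenitors are not independent of that choice. Of 17 listed genes, all tested against cycling progenitors, 2 were higher and 6 lower in precursors (median log2 change -0.71), against 5.4% and 5.62% of all genes. Cdkn1a, the CDK inhibitor p21, stood at 995 and 844 CPM in precursors, 78.3 and 75.9 in cycling progenitors and 712 and 596 in immature neurons, a log2 change of 3.49 ± 0.20 SE, adjusted p = 1.61e-06 against the former, and it was seen in 116 of 120 precursors (96.7%, 95% confidence interval 91.7 to 99.1%) and 33.9% of macrophage-like cells. Cdkn1c, the CDK inhibitor p57, stood at 71.6 and 104 CPM, above cycling progenitors at 24 and 16.6 and below immature neurons at 550.4 and 471 (1.94 ± 0.31 and -2.61 ± 0.19). Cdkn2d, the CDK inhibitor p19, was lower than in both (-1.52 ± 0.20 and -0.83 ± 0.18), the second of which was -0.70 without library 1 of the immature neurons (not called). Gadd45a and Gadd45g, stress and growth arrest genes, lay between the stages: lower than cycling progenitors by log2 changes of -0.89 ± 0.18 and -1.13 ± 0.18, and higher than immature neurons by 2.14 ± 0.18 and 1.79 ± 0.23. Cdk4, a G1 kinase, lay between them as well (-0.71 ± 0.17 and 1.53 ± 0.17), the first of which was -0.63 without library 1 of the cycling progenitors (not called).

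Transcripts of division genes were seen in part of the precursors. Genes of cell division were not tested against cycling progenitors, since Mki67 and Top2a define the groups. Against immature neurons, 20 of 29 were tested, 8 were higher in precursors and the other 12 were not called (median 2.10), with 4.86% of all genes higher. Cdk1, the mitotic kinase, was seen in 31 of 120 precursors (25.8%, 95% confidence interval 18.3 to 34.6%) and 3.07% of macrophage-like cells, and its 52 UMIs in precursors stood against 1 in immature neurons. Ube2c, which helps to degrade mitotic cyclins, was seen in 29 of 120 precursors (24.2%, 95% confidence interval 16.8 to 32.8%), against 0.744% of macrophage-like cells. In cycling progenitors Cdk1 stood at 410.3 and 422 CPM and Ube2c at 1479.8 and 1329, and in precursors they stood at 51.9 and 24 and 105 and 35.2. Pcna, of DNA replication, was seen in 42.5% of precursors and 28.3% of macrophage-like cells, and in thinned cells in 24.3% and 31.3%. Stem and progenitor genes were lower than in cycling progenitors in 4 of 13 tested, among them Sox2 (108 and 97.7 CPM against 389 and 337, log2 change -1.90 ± 0.20 SE, adjusted p = 8.16e-05) and Pax6 (-1.95 ± 0.28). Without other-type cells the changes of Sox2 and Pax6 were -3.33 and -3.46. Among all genes, 5.62% were lower and 5.4% higher than in cycling progenitors. One of the 13, the filament protein vimentin (Vim), was higher in precursors, at 1597 and 1562 CPM against 288 and 135 (2.76 ± 0.27 SE, adjusted p = 5.81e-05), with 2130.3 and 1724 in immature neurons, and its change was 3.48 without library 1 of the cycling progenitors. Ezh2, the Polycomb methyltransferase, stood at 244 and 269 CPM in precursors and 57.4 and 49 in immature neurons (2.20 ± 0.17 SE, adjusted p = 8.68e-05).

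Among neurogenic factors, Hes6 and Insm1 were lower and Myt1l and Nhlh1 higher than in cycling progenitors. Of 22 bHLH and early neurogenic genes, 14 were tested against cycling progenitors, with 3 higher and 4 lower, and 15 against immature neurons, with 5 higher and 2 lower (medians -0.34 and 0.14). The shares of all genes were 5.4% higher and 5.62% lower in the first comparison and 4.86% and 6.63% in the second. Hes6 stood at 679 and 794 CPM in precursors, 1684 and 1509 in cycling progenitors and 73.6 and 88.3 in immature neurons (-1.20 ± 0.15 and 3.13 ± 0.16). Insm1, a zinc finger factor of neurogenic progenitors, stood at 309 and 344 CPM, below cycling progenitors at 495 and 757 (-1.00 ± 0.19 SE, adjusted p = 0.00576). Id1 and Id3, which block bHLH factors, were lower than in cycling progenitors (-1.11 ± 0.20 and -1.13 ± 0.23). Myt1l, a repressor of non-neuronal genes, stood at 602 and 655 CPM against 68.2 and 87.8 in cycling progenitors (2.95 ± 0.19 SE, adjusted p = 4.62e-06) and 887 and 771 in immature neurons. Nhlh1 and Nhlh2, bHLH factors of early neurons, were higher than in cycling progenitors by 2.61 ± 0.34 and 1.26 ± 0.20, with Nhlh1 at 1.93 without library 1 of the cycling progenitors and 3.26 without library 2 of the cycling progenitors. Against immature neurons Myt1l, Nhlh1 and Nhlh2 were not called. Neurog1, which helped to define the cycling group, stood at 74.4 and 91.3 CPM in precursors and 2.94 and 1.78 in immature neurons (4.96 ± 0.37 SE, adjusted p = 6.56e-05).

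Among 31 homeobox and other identity factors, 27 were tested in each comparison, with 7 higher and 2 lower than in cycling progenitors and 8 higher and 2 lower than in immature neurons (median 0.15 in both). Over all genes tested, 5.4% were higher and 5.62% lower than in cycling progenitors and 4.86% higher and 6.63% lower than in immature neurons, so that the counts of lower factors were near the share over all genes. Lhx2 was highest at this stage, at 1430 and 1312 CPM against 475 and 586 and 790.3 and 676 (1.30 ± 0.16 SE, adjusted p = 0.000245 and 0.84 ± 0.15 SE, adjusted p = 0.00565). Ebf3, a factor of olfactory lineage neurons, stood at 234 and 292 CPM against 54.3 and 54.6 in cycling progenitors (2.18 ± 0.21), with 254 and 275 in immature neurons. Emx2, a homeobox factor of the olfactory lineage, rose against cycling progenitors (0.97 ± 0.19), and Eya2, a transcriptional coactivator, did too (1.00 ± 0.21). Sox11 and Sox4, factors of newborn neurons, were higher than in immature neurons (1.33 ± 0.17 and 1.24 ± 0.16), and so was Rbm24, an RNA-binding protein, which was lower than in cycling progenitors (3.19 ± 0.24 and -1.25 ± 0.19).

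The Notch targets Hes5 and Ccnd1 and the receptor Notch1 were lower in precursors than in cycling progenitors. Of 34 listed genes, 30 were tested, 9 were lower and 1 higher in precursors (median log2 change -0.36), and of 28 tested against immature neurons 7 were higher and 1 lower in precursors (median 0.30). The shares of all genes were 5.62% lower and 5.4% higher in the first comparison and 4.86% higher and 6.63% lower in the second. The counts of 1 were near these shares. The receptor Notch1 stood at 37.9 and 41.6 CPM in precursors, 80.8 and 112 in cycling progenitors and 8.83 and 18.7 in immature neurons (-1.32 ± 0.25 SE, adjusted p = 0.00543 and 1.50 ± 0.37 SE, adjusted p = 0.0279), and the second change was 1.06 without library 1 of the immature neurons (not called). The ligand Dll4 stood at 14 and 30.4 CPM in precursors and 25.3 and 45.1 in cycling progenitors, a log2 change of -0.69 ± 0.44 SE, adjusted p = 0.384 that was not called, and its 29 UMIs stood against 1 in immature neurons, a ratio of 53.8 (95% counting interval 8.92 to 2198). Among target genes, Hes5 stood at 8.42 and 16 CPM in precursors against 211 and 270.5 in cycling progenitors (-4.37 ± 0.30 SE, adjusted p = 5.58e-06), and Ccnd1, cyclin D1, at 43.5 and 106 against 316 and 316 (-2.19 ± 0.29 SE, adjusted p = 0.000498). Both were far below the progenitor level in both libraries, and the change of Ccnd1 was -2.89 without library 2 of the precursors. Ccnd1 is a cyclin and may go with Mki67 and Top2a, by which the groups were set apart. Ccnd1 was seen in 11.7% of precursors and 33.4% of macrophage-like cells, whose own expression of it was not told apart from free RNA. The same limit holds for Hes1. Hes1 was not called against cycling progenitors (-0.15 ± 0.22), and its share in precursors, 29.2%, was near the 27.0% of macrophage-like cells. Nrarp, a feedback inhibitor, was lower (-2.14 ± 0.48, and -3.53 without library 1 of the precursors and -1.46 without library 2 of the precursors), as were the glycosyltransferases Lfng (-2.27 ± 0.34) and Mfng (-1.15 ± 0.17), which modify Notch receptors. Mfng stood at 175 and 189 CPM in precursors and 2.94 and 1.78 in immature neurons (6.10 ± 0.29 SE, adjusted p = 9.29e-06). Dtx1, a ubiquitin ligase of the pathway, was the 1 gene that was higher than in cycling progenitors (36.5 and 36.8 CPM against 6.31 and 4.75, 2.55 ± 0.46 SE, adjusted p = 0.00394).

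**Figure D4:**
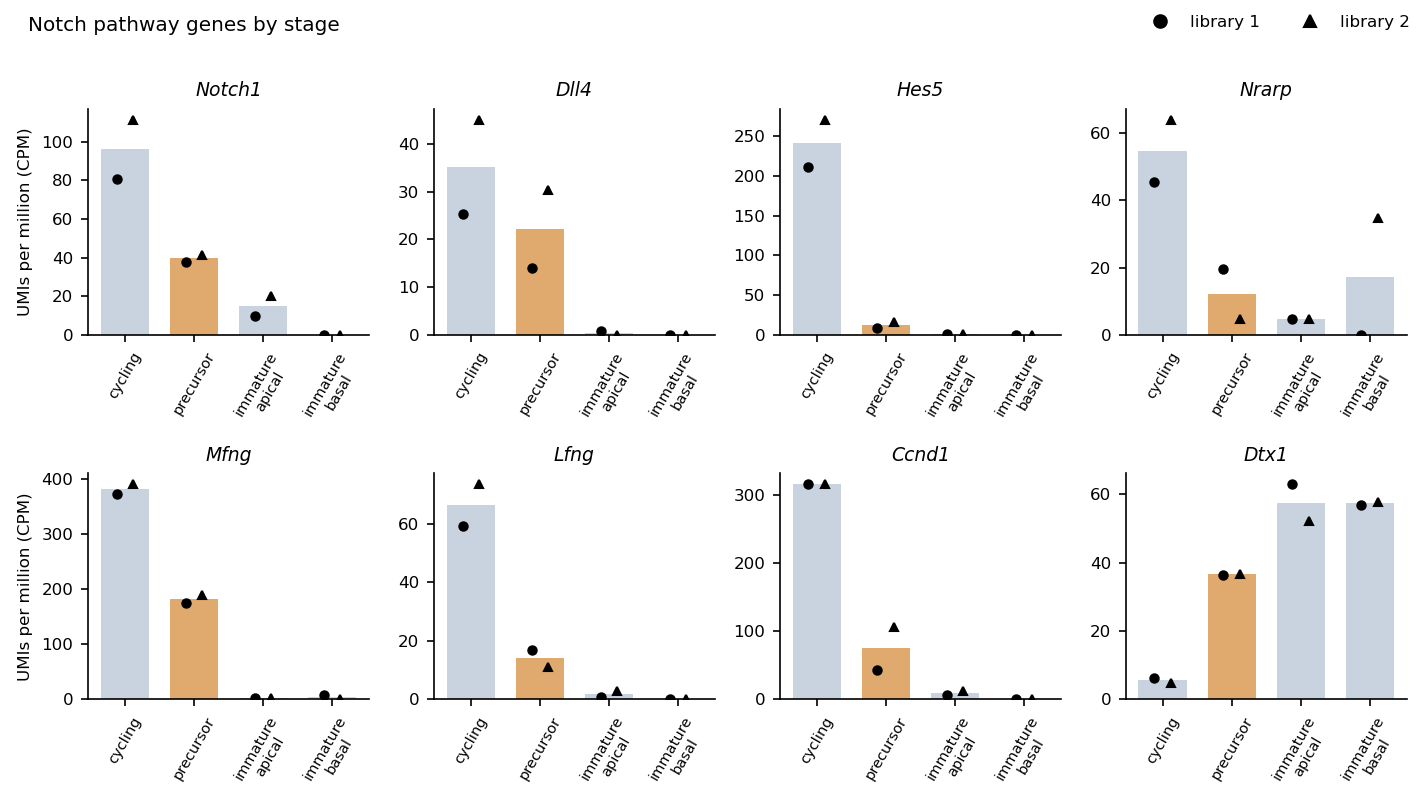
Level of 8 Notch pathway genes (y axis, CPM) in cycling progenitors, precursors and apical and basal immature neurons, with bars for the mean of 2 libraries and a point for each library. Hes5 stood at 211 and 270.5 CPM in cycling progenitors and 8.42 and 16 in precursors, whereas Dtx1 went from 6.31 and 4.75 to 36.5 and 36.8 CPM.

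Receptor and ligand were seen together in 1 precursor. Notch1 was seen in 32 of 120 precursors (26.7%, 95% confidence interval 19 to 35.5%) and Dll4 in 12 of 120 precursors (10%, 95% confidence interval 5.27 to 16.8%), against 8.65% and 0.0465% of macrophage-like cells. Thinned to 5000 UMIs the shares were 13.0% and 6.96%, and the thinned share of Notch1 in macrophage-like cells was 8.11%. Of the 12 precursors with Dll4, 1 held Notch1, and 31 of the 108 without Dll4 did (8.33%, 95% confidence interval 0.211 to 38.5%, and 28.7%, 20.4 to 38.2%), so that the intervals overlap. Notch1 was seen in 20 of the 55 precursors without Meis2 and 12 of the 65 with it, and without other-type cells in 15 of 41 and 3 of 45. Dll1 was seen in 9 precursors and Dll3 in 4, and Notch2 was at or below the share in macrophage-like cells (4.17% against 15.0%).

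Genes of the neuronal cytoskeleton were higher in precursors than in cycling progenitors. Of 27 genes of the early cytoskeleton and adhesion, 25 were tested in each comparison. Against cycling progenitors 16 were higher and the other 9 not called (median 1.01), and against immature neurons 3 were higher and 8 lower (median -0.32). The shares of all genes were 5.4% higher in the first comparison and 4.86% higher and 6.63% lower in the second. Stmn2, a tubulin regulator of growth cones, stood at 6162 and 5481 CPM in precursors against 1299 and 1203 in cycling progenitors (2.14 ± 0.14 SE, adjusted p = 5.58e-06). Tubb2b, a neuronal tubulin, stood at 1909 and 2041 CPM, between 514 and 527 in cycling progenitors and 3544 and 3484 in immature neurons. Mapt, which encodes tau, and Stmn4 followed the same order, with log2 changes of 3.02 ± 0.34 and 3.17 ± 0.39 against cycling progenitors and -0.90 ± 0.21 and -1.33 ± 0.18 against immature neurons. Stmn4 moved to 2.35 without library 1 of the cycling progenitors and 4.08 without library 2 of the cycling progenitors, and Mapt against immature neurons was -0.60 without library 1 of the immature neurons (not called). The adhesion molecule Ncam1 did as well (1.56 ± 0.16 and -0.82 ± 0.13). The RNA-binding protein gene Elavl4 was higher in precursors than in immature neurons, at 476 and 545 CPM against 106 and 95.4 (2.28 ± 0.15 SE, adjusted p = 4.52e-05).

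Several axon guidance genes were lower in precursors than in immature neurons. Of 32 axon guidance and migration genes, 21 were tested against cycling progenitors, with 5 higher and the other 16 not called (median 0.32), and 24 against immature neurons, with 8 lower and the other 16 not called (median -0.16). The shares of all genes were 5.4% higher and 5.62% lower in the first comparison and 4.86% and 6.63% in the second. The semaphorin receptor Nrp2 stood at 57.5 and 149 CPM, between 25.3 and 26.1 in cycling progenitors and 612 and 545 in immature neurons (1.89 ± 0.41 and -2.57 ± 0.30), and the changes were 1.12 and -3.34 without library 2 of the precursors. The Slit receptor Robo2 was higher than in cycling progenitors (1.77 ± 0.35). Kirrel3, an adhesion molecule of vomeronasal axons, had 5 UMIs in precursors and 72 in immature neurons (-2.97 ± 0.51, and -2.24 without library 1 of the precursors and -4.27 without library 2 of the precursors), and Tenm2, a teneurin adhesion molecule, had 4 and 88 (-3.57 ± 0.44). Of 19 genes of mature neurons, 6 were higher and 1 lower than in cycling progenitors (16 tested, median 0.57), and 2 were higher and 8 lower than in immature neurons (18 tested, median -1.08). Uchl1, a ubiquitin hydrolase of neurons, stood at 441 and 471 CPM, between 158 and 221 and 985 and 949.6. Omp, the olfactory marker protein, was seen in 7.50% of precursors and 6.83% of macrophage-like cells.

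Some chromatin and splicing genes changed as well. Of 29 chromatin genes, 23 were tested against cycling progenitors (1 higher and 6 lower, median -0.36) and 25 against immature neurons (7 higher and 1 lower, median 0.18). The maintenance methyltransferase Dnmt1 and its partner Uhrf1 were lower than in cycling progenitors (-1.83 ± 0.25 and -3.18 ± 0.47). Both may go with Mki67 and Top2a, by which these groups were set apart, so their changes are not independent of that choice. Actl6b, the neuronal subunit of BAF complexes, was higher than in cycling progenitors and lower than in immature neurons (2.28 ± 0.51 and -1.20 ± 0.28), and Actl6a, the progenitor subunit, was lower than in cycling progenitors (-0.69 ± 0.19). The call of Actl6b was lost without library 1 of the cycling progenitors in the first comparison and without library 1 of either group in the second, and that of Actl6a without library 1 or 2 of the cycling progenitors or library 2 of the precursors. Of 18 splicing factors, 14 were tested in each comparison, with 5 higher and 2 lower than in cycling progenitors (median 0.55) and 2 higher and 1 lower than in immature neurons (median -0.05). Among all genes, 5.4% were higher and 5.62% lower than in cycling progenitors, and 4.86% higher and 6.63% lower than in immature neurons. The counts of 1 in both lists were near these shares. Ptbp1, a repressor of neuronal exons, was lower than in cycling progenitors (-1.14 ± 0.22 SE, adjusted p = 0.00545) and Celf3, a neuronal splicing factor, was higher (1.73 ± 0.28 SE, adjusted p = 0.00193).

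By size of change, the 8 genes most raised over cycling progenitors were Cspg5, Clic6, Arl14epl, Tex15, Gal, Vav3, Umodl1 and Ly6h. Cspg5, a neural proteoglycan, had 85 UMIs in precursors and 1 in cycling progenitors. The neuropeptide gene Gal stood at 118 and 147 CPM in precursors against 3.79 and 4.75 (4.85 ± 0.36 SE, adjusted p = 8.47e-06), and was seen in 32 of 120 precursors (26.7%, 95% confidence interval 19 to 35.5%), against 0.418% of macrophage-like cells. Ly6h, a GPI-anchored protein of neurons, stood at 489.8 and 519 CPM against 27.8 and 11.9 (4.43 ± 0.28 SE, adjusted p = 3.86e-06, and 5.32 without library 1 of the cycling progenitors). The 8 most lowered were Pbk, Esco2, Ckap2l, Ska1, Neil3, Fbxo5, Kif15 and Hmmr, which are genes of dividing cells, and the first 5 had 0 UMIs in the precursors. They go with Mki67 and Top2a, on which the cells were selected, and nothing is read from them. In all, edgeR called 1255 of 11385 genes, 615 higher and 640 lower, and without other-type cells 1529, of which 1044 were called in the same direction in both.

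Against immature neurons the 8 most raised genes were Sct, Mfng, Mss51, Tekt1, Gmnc, Ccno, Tex14 and Neurog1. Sct, the secretin gene, stood at 209 and 122 CPM in precursors and 256 and 356 in cycling progenitors, with 1 UMI in immature neurons, a ratio of 417 (95% counting interval 74.2 to 16561) over the latter. It was seen in 47 of the 120 precursors. Tekt1, a protein of ciliary microtubules, stood at 88.4 and 57.7 CPM against 1.47 and 0.892. The 8 most lowered were Mef2b, Calb2, Ncam2, Pwwp3b, Lsamp, Vsnl1, Hrk and Lmo2. Mef2b, a MADS-box factor, had 0 UMIs in precursors and was at least 45.6-fold lower than in immature neurons against a floor of 3 counts over the precursors, though it overlaps Borcs8 on the same strand. Calb2, calretinin, stood at 66 and 191 CPM in precursors and 4337 and 3727 in immature neurons (-5.06 ± 0.35 SE, adjusted p = 4.52e-05, and -5.95 without library 2 of the precursors). In all 1405 of 12230 genes were called, 594 higher and 811 lower, with 2507 called when the library was a block and 1274 called in the same direction also without other-type cells.

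Within the precursors, those with at least 2 UMIs of Neurog1 held more Hmgn2, Insm1 and Id1 and less Meis2 and Nrp2 than those with 0. Cells with at least 2 UMIs of Neurog1 (20 cells, 12 and 8) were compared with those at 0 (69 cells, 32 and 37), leaving out 31 with 1 UMI, and their medians were 8957 and 9132 UMIs. In this comparison edgeR took nearly all of the spread from all genes together, so that a gene's own difference between the libraries hardly entered its SE and p. Of 8908 genes, 53 were higher in Neurog1-positive cells (0.595%) and 273 lower (3.06%). Other-type markers were unequal between the groups: 3 of 20 positive (all in library 1) and 24 of 69 negative cells passed the limit for a list, and the sustentacular list summed to 20.7 and 26.5 CPM in positive against 457 and 600 CPM in negative cells. Without these cells 6374 genes were tested, and 35 were higher (0.549%) and 30 lower (0.471%). Of the 326 genes, 44 were called in the same direction in both fits and 135 had too few UMIs to be tested. The median log2 change over all genes was -0.18, and -0.07 without other-type cells. The 8 most lowered genes, among them Krt23, Dusp5, Hbegf, Nr4a1, Anxa1, Tmem213 and Rhoc, had 0 UMIs in positive cells. Krt23, a keratin, had 159 and 119 UMIs in libraries 1 and 2 of the negative cells. Of these only Anxa1 had enough UMIs to be tested without other-type cells, and it was not called (-4.95 on the log2 scale).

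Of the genes higher in Neurog1-positive cells, Hmgn2, a nucleosome-binding protein, stood at 1408 and 1603 CPM in positive and 309.6 and 297 in negative cells (2.21 ± 0.25 SE, adjusted p = 1.9e-16, and 2.23 without other-type cells). It was called under all 15 alternatives. Btbd17 stood at 145 and 119 CPM against 16.4 and 9.59 (3.22 ± 0.57 SE, adjusted p = 2.05e-06), and Crabp2, a retinoic acid binding protein, at 300.2 and 517 against 113 and 48 (2.21 ± 0.32 SE, adjusted p = 7.23e-10, and 3.07 without library 1 of the negative cells). The Notch target Hes5 had 13 UMIs in positive and 2 in negative cells (4.66 ± 0.94 SE, adjusted p = 6.27e-05, and 5.32 without library 1 of the positive cells). Of the 13 UMIs, 8 were in 2 cells of library 2 with 4 and 3 UMIs of Neurod1, and among cells with at least 5 UMIs of Neurod1 Hes5 had too few UMIs to be tested. It was not called with cells of 1 UMI of Neurog1 counted as positive (adjusted p = 0.182 by edgeR). Ccnd1 stood at 51.8 and 649 CPM against 49.2 and 36 (2.82 ± 0.36 SE, adjusted p = 1.14e-12), a change that was 3.80 without library 1 of the positive cells and 0.21 without library 2 of the positive cells (not called). The same 2 cells held 41 of its 54 UMIs in positive cells, and with at least 5 UMIs of Neurod1 the change was 0.75 and not called (adjusted p = 0.611 by edgeR, up to 0.942 over the alternatives), nor was it called by DESeq2 (adjusted p = 0.688). Mdk, the growth factor midkine, stood at 114 and 464 CPM against 30.5 and 43.2 (2.79 ± 0.38 SE, adjusted p = 4.15e-11) and was 3.53 without library 1 of the positive cells and 1.56 without library 2 of the positive cells (not called). Insm1 (1.57 ± 0.26), Id1 (1.84 ± 0.31) and Gadd45a (1.54 ± 0.27) were higher, also without other-type cells. With cells of 1 UMI of Neurog1 counted as positive, Hmgn2 was the 1 gene called higher. Insm1, Id1 and Gadd45a thus lost their calls there. In library 2, Insm1 had 11, 12 and 21 UMIs in single positive cells and at most 5 in each of the others. Hes6 was higher too (1.26 ± 0.24), and was 0.85 without library 2 of the positive cells (not called). Ccno and Plk4 were called higher (1.21 ± 0.38 and 1.03 ± 0.28) but not without other-type cells. Ccno was 0.25 without library 1 of the positive cells (not called) and 1.09 without library 1 of the negative cells (not called) and 1.47 without library 2 of the negative cells (not called), and was not called with the library as a block (adjusted p = 0.0607, up to 0.94 over the alternatives). Plk4 was 0.61 without library 1 of the positive cells (not called) and 0.93 without library 1 of the negative cells (not called).

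Lower in Neurog1-positive cells were Meis2, at 279 and 132 CPM against 569.9 and 889.7 (-1.86 ± 0.30 SE, adjusted p = 7.8e-08), Nrp2, at 31.1 and 13.2 against 82.1 and 179.9 (-2.55 ± 0.58 SE, adjusted p = 0.000699), and Gnai2, at 311 and 146 against 352 and 556 (-1.03 ± 0.30 SE, adjusted p = 0.0201). Without other-type cells the log2 changes were -1.95, -2.90 and -1.25. All 3 are genes of apical neurons and were lower in both libraries. Lower genes were not only apical ones: without other-type cells Stmn4 and Ncam1 were called lower too (-1.76 and -1.02). Gnao1, of basal neurons, was not called (0.04, and -0.71 without other-type cells). Leaving out 1 library, Meis2 was -2.56 without library 1 of the positive cells, Nrp2 was -3.37 without library 1 of the positive cells and -1.85 without library 2 of the negative cells (not called), and Gnai2 was -1.74 without library 1 of the positive cells and -0.60 without library 2 of the positive cells (not called) and -0.64 without library 2 of the negative cells (not called). By cells, Meis2 was seen in 7 of the 20 positive and 38 of the 69 negative cells. With 1 UMI of Neurog1 enough, it was seen in 27 of 51 precursors with Neurog1, a share near that of the 69 without. Without other-type cells the counts at that cut were 22 of 41 and 23 of 45. Counting cells with 1 UMI of Neurog1 as positive, edgeR called 23 genes. The count of 326 was 159 without library 1 of the positive cells, 210 and 211 without library 1 or 2 of the negative cells, and 234 without library 2 of the positive cells.

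**Figure D5:**
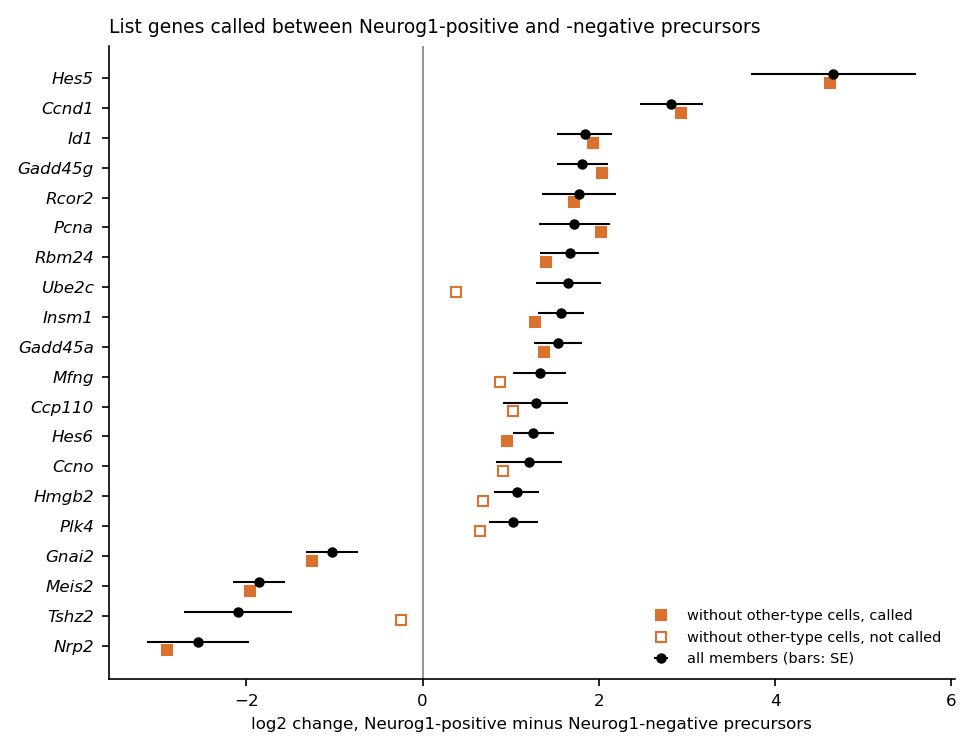
Log2 change between Neurog1-positive and Neurog1-negative precursors (x axis, positive minus negative) for the list genes called by edgeR, with black points and bars for the estimate and SE over all members and squares for the estimate without other-type cells, filled where called. Hes5 lies at 4.66 ± 0.94 and Nrp2 at -2.55 ± 0.58, and Tshz2 moved to -0.25 without other-type cells.

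The apical and basal factors were already unevenly spread over the precursors. Meis2 was seen in 65 of 120 precursors (54.2%, 95% confidence interval 44.8 to 63.3%) and Bcl11b in 43 of 120 precursors (35.8%, 95% confidence interval 27.3 to 45.1%), against 12.2% and 2.84% of macrophage-like cells. Where Meis2 was present it had a median of 9 UMIs (up to 54), with 63 precursors at 2 or more UMIs, 2 at 1 UMI and 55 at 0. The precursors with the most Meis2, at 54, 45, 38, 35, 29 and 28 UMIs, all held other-type markers. Sustentacular cells express Meis2 too, per the study. The sustentacular list summed to 516 and 604 CPM in Meis2-positive and 17.4 and 115 CPM in Meis2-negative precursors. Meis2 without Bcl11b was seen in 52 precursors (25 and 27 in libraries 1 and 2), Bcl11b without Meis2 in 30 (21 and 9), both in 13 (3 and 10) and neither in 25 (11 and 14). Bcl11b was thus seen in 13 of 65 precursors with Meis2 (20.0%, 95% confidence interval 11.1 to 31.8%) and in 30 of 55 without (54.5%, 40.6 to 68.0%), and without other-type cells in 7 of 45 and 22 of 41. Tfap2e, the later basal factor, was seen in 8 of 120 precursors (6.67%, 95% confidence interval 2.92 to 12.7%), against 0.744% of macrophage-like cells. In the stages, Meis2 stood at 518 and 702 CPM in precursors and 178 and 166 in cycling progenitors (1.73 ± 0.19 SE, adjusted p = 0.000107), and Bcl11b at 60.3 and 60.9 against 98.5 and 152 (-1.08 ± 0.25 SE, adjusted p = 0.0157, and -0.66 and not called at a mitochondrial limit of 5%), with 227 and 268 in apical and 155 and 370.4 in basal immature neurons. Gnao1, of basal neurons, stood at 253 and 249.9 CPM in precursors, 80.1 and 89.8 in apical and 399 and 498 in basal immature neurons, and Gnai2 at 358 and 495, 979 and 1126 and 171 and 219.9. Against the pooled immature neurons Gnao1 was higher and Gnai2 lower in precursors (1.07 ± 0.15 and -1.26 ± 0.16), and against the basal ones alone both changes had the other sign (-0.81 and 1.15).

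Precursors with Meis2 held less Bcl11b, Id1 and Grasp and more Stmn4 than those without. In Meis2-positive cells (63 cells with at least 2 UMIs, against 55 at 0) 204 of 9695 genes were higher (2.1%) and 37 lower (0.382%), with 669 genes called when the library was a block. Without other-type cells 15 of 7292 genes were higher (0.206%) and 25 lower (0.343%), and 18 of the 241 genes were called in the same direction in both fits. The macrophage list summed to 372 and 430 CPM in positive and 24.3 and 45.2 CPM in negative cells, and all 4 doublets were positive. The 8 most raised genes were Wnt5a, F2rl1, Col6a3, Palld, H2-Aa, C1qc, Igfbp2 and Cp, of which Igfbp2 alone had enough UMIs to be tested without other-type cells and was not called (1.50). C1qc and H2-Aa are genes of macrophages and antigen-presenting cells. The 8 most lowered were Grp, Ppp1r14a, Ube2c, Bcl11b, Grasp, Rgs2, Foxj1 and Csrp2. Bcl11b stood at 14.1 and 31.9 CPM in positive and 129 and 95.3 in negative cells (-2.34 ± 0.41 SE, adjusted p = 0.0153, and -2.06 without other-type cells). Grasp, a scaffold protein, stood at 37.7 and 41.8 against 159.8 and 171 (-2.08 ± 0.29 SE, adjusted p = 0.00523), and Id1 at 101 and 73.7 against 239.7 and 301 (-1.64 ± 0.28 SE, adjusted p = 0.0132). Stmn4 was higher in positive cells, at 169.5 and 268 against 79.9 and 70.3 (1.48 ± 0.30 SE, adjusted p = 0.0303). These 4 genes were called also without other-type cells, but not at a mitochondrial limit of 5% nor with at least 5 UMIs of Neurod1, where 3 genes were called in each case. Foxj1 and Ccno were lower in Meis2-positive cells (-2.01 ± 0.45 and -1.37 ± 0.27), and not called without other-type cells. Foxj1 was -1.58 without library 2 of the positive cells (not called) and -1.81 without library 1 of the negative cells (not called), and Ccno -1.35 without library 1 of the negative cells (not called). The count of 241 was 506 and 569 without library 1 or 2 of the positive cells, 183 without library 1 of the negative cells and 671 without library 2 of the negative cells.

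V1R and V2R genes were seen in shares of precursors near those of macrophage-like cells. UMIs of any of 209 V1R genes were seen in 37 of 120 precursors (30.8%, 95% confidence interval 22.7 to 39.9%), against 649 of 2151 macrophage-like cells (30.2%) and 163 of 204 apical immature neurons (79.9%). A single precursor held 147 of the 205 V1R UMIs, and 2 held at least 5, of which 1 was without other-type markers. V2R genes were seen in 9 precursors (7.5%) and 13 of 22 basal immature neurons (59.1%), against 6.6% of macrophage-like cells, and olfactory receptor genes in 12 precursors (10.0%), against 4.83%. At this depth receptor expression in the precursors was not detectable above this background for V1R and V2R genes. Of the 8 genes of the olfactory sensory neuron list, 6 had UMIs in the precursors. They came to 95 UMIs in 22 precursors, with up to 61 in 1 precursor. The other genes, Gnal and Cnga2 of the signalling cascade of main olfactory neurons, had 0 UMIs. The list summed to 23.9 and 125 CPM in precursors of libraries 1 and 2 and 114 and 176 CPM in immature neurons. It was not among the 11 lists by which other-type cells were marked.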

How the data were processed

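Single cells of whole VNO were captured in 2 libraries (10x 3′ assay). The authors deposited raw UMI counts per gene and barcode for each library, made from the reads with Cell Ranger 4 on mm10 and with both libraries merged into 1 matrix, per the labels and methods. The labels and methods do not say if reads of the deeper library were thinned at that step. Near-identical receptor genes are uncertain, since reads that map to several genes are not counted. The deposited counts were used as they stand, and no rows without a gene were present. From them, the UMIs of each group's cells were added up within a library, and each sum is 1 replicate. Genes with at least 10 UMIs over the sums of a comparison were tested with edgeR 4.0.16 (R 4.3.3; TMM, quasi-likelihood F test, library sums without a block, Benjamini-Hochberg adjusted p under 0.05, SE taken from the F value). Group-defining genes were left out. Fold changes of genes with few UMIs are given as UMI ratios with exact intervals or, at 0 UMIs, as bounds against 3 counts. Doublets were called with Scrublet in scanpy 1.11.5 at an expected rate of 8%, and were kept.

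The same number names 1 capture, and thus the same animals, in every group, so the numbers pair the sums. Correlations of the deviations of same-numbered sums were 0.00741 against cycling progenitors, -0.00300 against immature neurons, 0.00263 for Neurog1 and 0.0214 for Meis2. A self-test ran the fit on counts simulated with a single fixed spread and no cells that carry a sum. It does not show how the fit behaves on the real sums.

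Named genes were, per comparison, the 8 called genes that rose most and the 8 that fell most, with at least 50 CPM in both libraries of the higher group and leaving out receptor genes and Gm, Rik and mitochondrial symbols, plus the 10 genes highest at this stage and genes of the lists. The members and all lists were chosen with earlier results of these data known. Sas6, 1 symbol of the lists, was not analysed here, and a few other genes are not reported here. Gene positions are from GENCODE M21 and promoters from RefSeq (GRCm38.p6). Alternatives tried were DESeq2 1.42.0, other count filters and cell limits, thinning to 5000 UMIs, the library as a block and leaving out each library.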

Additional observations from a re-analysis of the deposited data

How the results depend on the processing

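Counts of called genes depended on the setting. DESeq2 called 535 genes against cycling progenitors, 635 against immature neurons, 87 for Neurog1 and 91 for Meis2. With the library as a block 2507 were called against immature neurons and 669 for Meis2, and the calls of Mcidas, Jag1, Hey1, Tubb2a, Rcor2, Rbfox2, Celf5 and Esrp1 against cycling progenitors and of Ccno for Neurog1 were lost. Without a filter on low counts 2148 were called against immature neurons, 117 for Neurog1 and 485 for Meis2, and with edgeR's filterByExpr 184 for Neurog1. At a mitochondrial limit of 5% the counts were 67 for Neurog1 and 3 for Meis2, in thinned cells 79 and 40, and without other-type cells 65 and 40. Immature neurons with at least 10 UMIs of Gap43 gave 787, Neurog1 at 1 UMI 23, and Neurod1 at 5 UMIs 3 for Meis2. Requiring 0 UMIs of Gap43 left 63 precursors. Leaving out 1 library gave 1071 to 1522 genes against cycling progenitors, 1150 to 1581 against immature neurons, 159 to 234 for Neurog1 and 183 to 671 for Meis2, with the lone sum of a group taken to vary like the other group. Against basal immature neurons alone 4 genes changed sign, Gnai2 (1.15), Gnao1 (-0.81), Tppp3 (-1.17) and Krt14 (4.60), and Prom1 did so for Meis2 at a mitochondrial limit of 5% (-0.78) and without other-type cells (-0.84). Of all values of named genes under alternatives, these sign changes included, 1607 of 1729 kept direction and call against cycling progenitors, 1738 of 1888 against immature neurons, 391 of 549 for Neurog1 and 293 of 418 for Meis2. The causes were not tested. Depth limits the sums of the 20 Neurog1-positive cells most (96604 and 75506 UMIs).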
